A study of Danio rerio with 2 samples.

Results

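Gonads make sex steroids from cholesterol in a short chain of reactions, and this account follows the genes of that chain in zebrafish testis and ovary. The genes were chosen by name, with earlier results of these data known. The rule held 10 zebrafish symbols, and 9 of them were carried by rows of the deposited table, case ignored. They gave 10 rows of 24539, because CYP11A1 is the symbol of 2 Ensembl identifiers and no row carries cyp11a2. Many symbols in the naming table are human-style capitals and are printed as given. The study sequenced total RNA from each organ, and its title names the search for sex-biased genes. The groups were testis and ovary of adult wild-type (WT) fish, with no treatment named; each is 1 library pooled from 3 adults, and no age beyond adult is stated. With 1 library per organ, no difference below has a replicate check, and no test was made.

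Steroid synthesis starts when the StAR protein moves cholesterol to the inner mitochondrial membrane. The side-chain cleavage enzyme Cyp11a then makes pregnenolone, Hsd3b enzymes turn it into progesterone, and Cyp17a enzymes add a hydroxyl group and, in the case of Cyp17a1, cut the side chain to give androgens. Hsd17b3 is known for making testosterone, and Cyp11c1 with Hsd11b2 turns androgens into 11-ketotestosterone, a main androgen of fish. In the testis these steps are a task of Leydig cells, and in the ovary of the theca and granulosa cells around the oocyte. In the fish ovary the same chain also yields the progestins that drive the last step of oocyte maturation.

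The values are FPKM, fragments scaled to gene length and library total, so levels of different genes can be set side by side within a library. A row was called higher in an organ when (FPKM + 1) differed at least 2-fold and the higher library reached 1 FPKM. By this rule 7 of the 10 rows passed towards testis, 2 towards ovary and 1 towards neither. Of all 19053 rows that reached 1 FPKM, 45.1% were higher in testis and 16.6% higher in ovary. With the median ratio of all rows set to 0 those shares were 25.1% and 30.3%, and with a trimmed mean of log ratios 21.9% and 33.7%. The calls on the 10 rows were 7 and 2 under both. The trimmed mean was taken on plain FPKM ratios but subtracted from log2(FPKM + 1) ratios, which are smaller for low rows. On the log2(FPKM + 1) scale, testis over ovary, the 10 rows had a median ratio of 3.25 and all 19053 rows one of 0.80. Bulk RNA cannot tell fewer cells of a type from less RNA per cell.

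**Figure D1:**
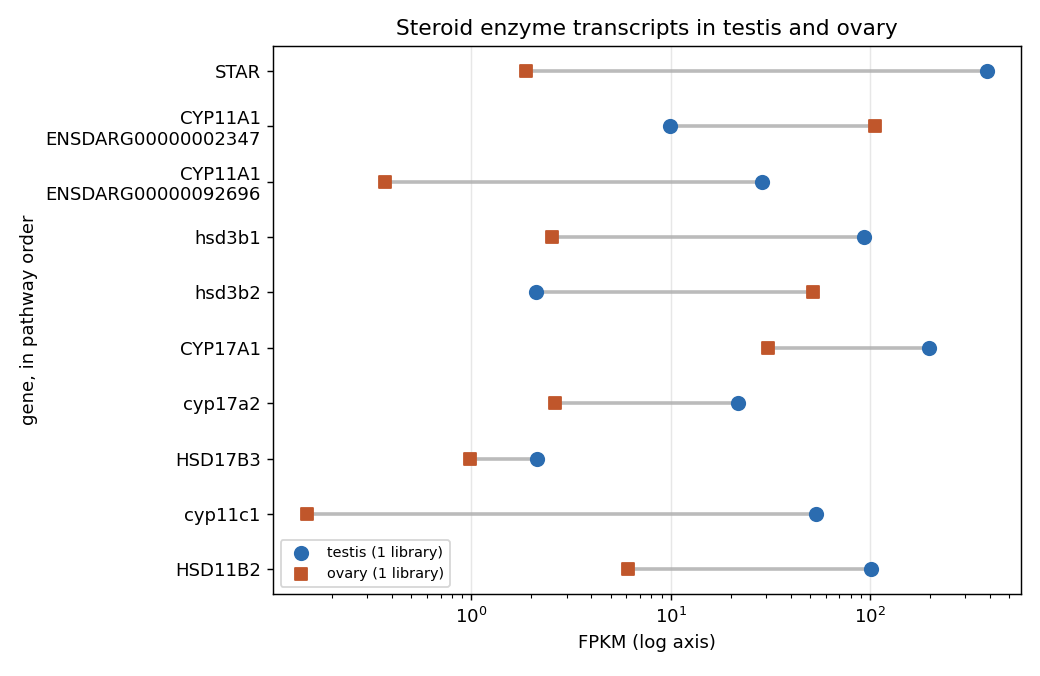
FPKM of each gene (log axis) in the testis library (circles) and the ovary library (squares), 1 library per organ, with genes in the order of the pathway. The ovary square lies to the right of the testis circle for hsd3b2 and for CYP11A1 ENSDARG00000002347, and to the left for the other 8 rows.

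The cholesterol carrier gene STAR had the highest level of the group in testis and a low level in ovary. STAR (ENSDARG00000006137) read 385 FPKM in testis and 1.88 FPKM in ovary, a plain ratio of 205. It stood at rank 153 of 24539 rows in testis and at rank 11311 in ovary. Its log2 ratio of 7.07 was the 38th highest of the 19053 rows that reached 1 FPKM. Of all 10 rows, STAR therefore had the highest log2(FPKM + 1) ratio towards testis.

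The 2 rows of the side-chain cleavage gene CYP11A1 lay on opposite sides. ENSDARG00000002347 read 9.87 FPKM in testis and 105 FPKM in ovary, 10.7 times higher in ovary. ENSDARG00000092696 read 28.6 FPKM in testis and 0.37 FPKM in ovary, 77.3 times higher in testis. The ovary value of the former was the highest ovary level of the 10 rows and the 796th highest of all rows in that library. The latter was near the bottom of the group in ovary, above only cyp11c1. The RefSeq genes of assembly GRCz12tu include 2 neighbouring protein-coding genes, cyp11a1.1 and cyp11a1.2, and list cyp11a1 as an older name of the former. That table gives no Ensembl identifiers, so which row is which copy was not settled here. Where neighbouring copies are nearly identical, the division of reads between them is uncertain.

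The next step, from pregnenolone to progesterone, showed the same split between copies. The row of hsd3b1 (ENSDARG00000069926) read 93.8 FPKM in testis and 2.54 FPKM in ovary, 36.9 times higher in testis. The row of hsd3b2 (ENSDARG00000019747) read 2.12 FPKM in testis and 51.65 FPKM in ovary, 24.4 times higher in ovary. Each organ thus had 1 copy far above the other. The names need care, since the RefSeq table also gives hsd3b1 as an older name of hsd3b2. As background, zebrafish hsd3b2 is known for transcripts that the egg receives from the mother.

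The 2 genes for Cyp17a enzymes were both higher in testis and by similar factors. CYP17A1 (ENSDARG00000033566), whose product makes androgens, read 199 FPKM in testis and 30.7 FPKM in ovary, a plain ratio of 6.47. The gene cyp17a2 (ENSDARG00000053966), whose product in fish is known for hydroxylation without the cut that gives androgens, read 21.9 FPKM in testis and 2.64 FPKM in ovary, a plain ratio of 8.29. CYP17A1 was the second highest of the 10 rows in testis and the third highest in ovary. It was the only row called higher in testis that also passed 10 FPKM in ovary.

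The genes of the last steps towards fish androgens differed widely in level. For cyp11c1 (ENSDARG00000042014), which encodes the 11-beta-hydroxylase, the values were 53.8 FPKM in testis and 0.15 FPKM in ovary. The plain ratio was 359, the highest of the 10 rows, and rounding of the deposited values to 2 decimals alone allows 347 to 371. HSD11B2 (ENSDARG00000001975), whose product makes keto steroids and also inactivates cortisol, read 101 FPKM in testis and 6.11 FPKM in ovary, a plain ratio of 16.5. HSD17B3 (ENSDARG00000023287) was low in both organs, at 2.13 FPKM in testis and 0.98 FPKM in ovary. Its plain ratio was 2.17, but on the log2(FPKM + 1) scale it reached 0.66, and so it was not called. In testis it read almost the same as hsd3b2, the lowest of the 10 rows there.

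**Figure D2:**
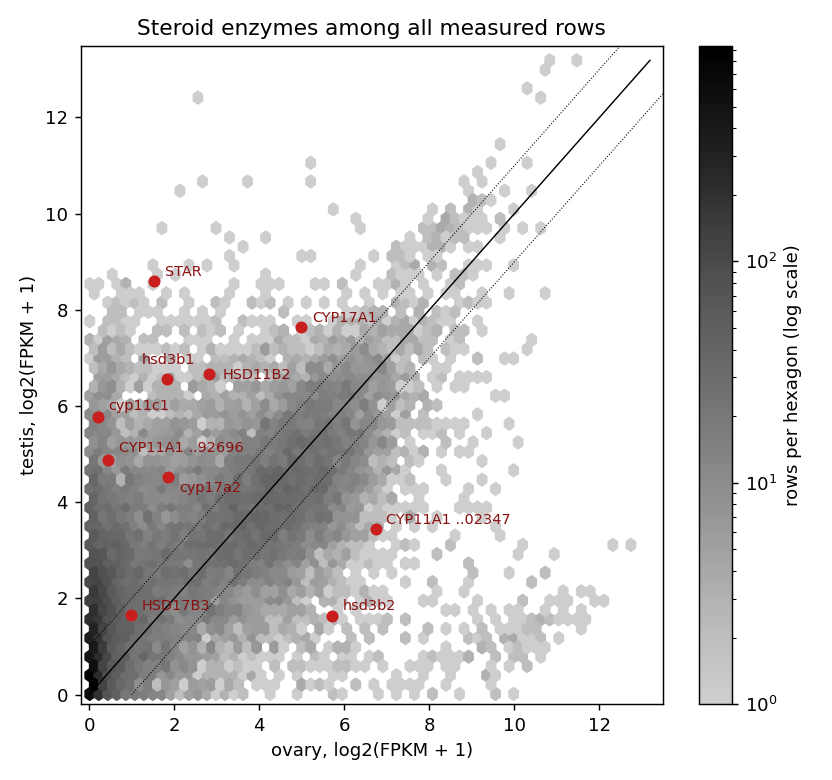
Testis against ovary on the log2(FPKM + 1) scale for all 24539 rows (grey hexagons, darker where more rows fall) with the 10 steroid enzyme rows in red. The solid line marks equal values and the dotted lines 2-fold differences; 7 red points lie above the upper dotted line, 2 below the lower one and HSD17B3 between them.

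Within a library, the order of the genes differed between the organs. In testis the levels ran from STAR at 385 FPKM through CYP17A1, HSD11B2, hsd3b1, cyp11c1, CYP11A1 ENSDARG00000092696, cyp17a2 and CYP11A1 ENSDARG00000002347 down to HSD17B3 at 2.13 and hsd3b2 at 2.12 FPKM. In ovary they ran from CYP11A1 ENSDARG00000002347 at 105 FPKM through hsd3b2, CYP17A1, HSD11B2, cyp17a2, hsd3b1, STAR, HSD17B3 and CYP11A1 ENSDARG00000092696 down to cyp11c1 at 0.15 FPKM. With 1 library each, whether neighbours in these orders differ beyond a replicate spread was not tested. In ovary the top 3 rows held 92.8% of the group's summed FPKM. All 10 rows together came to 897 FPKM in testis and 203 FPKM in ovary, which is 0.159% and 0.0354% of each library's total.

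Set against each other, the steps had different proportions in the 2 organs. The FPKM of STAR was 10.01 times the sum of the CYP11A1 rows in testis, whereas in ovary the CYP11A1 sum was 56.3 times STAR. The sum of hsd3b1 and hsd3b2 was 0.435 times the sum of CYP17A1 and cyp17a2 in testis and 1.62 times that sum in ovary. For cyp11c1 the FPKM was 0.244 times the Cyp17a sum in testis and 0.0045 times in ovary. These proportions are taken within a library and do not change with the scaling between libraries.

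Summed over copies, the totals of the steps differed between the organs in different ways. The CYP11A1 rows summed to 38.5 FPKM in testis and 106 FPKM in ovary, a ratio of 2.75 towards ovary. ENSDARG00000092696 held 74.3% of that sum in testis and 0.35% in ovary. The Hsd3b copies summed to 95.9 FPKM in testis and 54.2 FPKM in ovary, a ratio of 1.77 towards testis. Lowered by the median log2 ratio of all rows (0.80), it was 1.02. That median was taken on FPKM + 1 and so is not the median of plain ratios. With the trimmed mean (0.98), taken on plain ratios, the ratio turned to 1.12 towards ovary. Of the Hsd3b sum hsd3b1 held 97.8% in testis and 4.69% in ovary. The Cyp17a copies summed to 221 FPKM in testis and 33.4 FPKM in ovary, and CYP17A1 held 90.1% and 92.1% of these sums. So the dominant copy changed between organs for CYP11A1 and Hsd3b and stayed the same for Cyp17a.

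**Figure D3:**
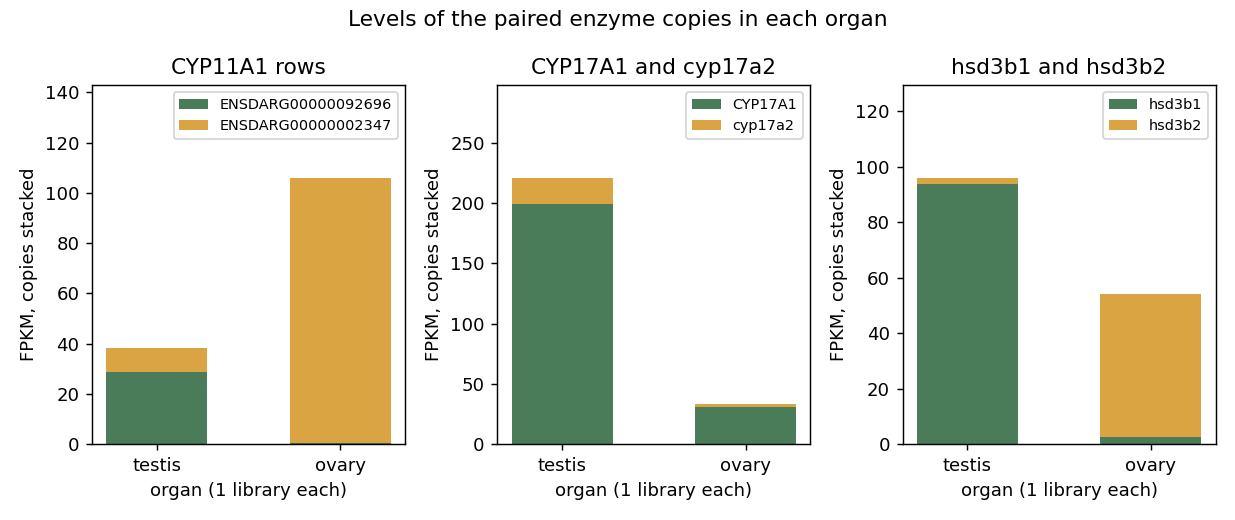
FPKM of the copies of each enzyme, stacked, in testis and ovary (1 library each), with linear axes from 0. For CYP11A1 and Hsd3b the colour that fills most of the bar differs between the organs, and for Cyp17a the same copy holds 90.1% in testis and 92.1% in ovary.

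The ratio of the 2 organ ratios within a pair does not depend on how the libraries are scaled. On the log2 scale it was 9.69 for the CYP11A1 rows, 9.81 for hsd3b1 against hsd3b2 and -0.36 for CYP17A1 against cyp17a2. Across the table, 1048 symbols were carried by exactly 2 rows that both reached 1 FPKM, and 13% of these pairs were called in opposite organs. Among 588 pairs whose symbols differ only in a final a or b, 11.1% were. On the log2(FPKM + 1) scale the CYP11A1 rows were 7.73 apart, and 6 of the 1048 pairs were further apart; the median gap was 1.48. For hsd3b1 and hsd3b2 the gap was 8.82, and 3 of the 1048 pairs exceeded it. This pair carries different symbols and so does not belong to those 1048. The 1048 pairs share only a name, and some may not be true copies.

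Mitochondrial P450 enzymes such as Cyp11a and Cyp11c1 receive electrons from a ferredoxin, and the ferredoxin genes also differed between the organs. The row of fdx1 read 63.3 FPKM in testis and 178 FPKM in ovary, and fdx1b read 22.1 FPKM in testis and 1.59 FPKM in ovary. In zebrafish fdx1b is known as the ferredoxin of steroid hormone synthesis. It held 25.9% of the sum of the pair in testis and 0.884% in ovary, so fdx1 was the higher copy in both organs. Among all 9 rows of redox partners 3 passed towards testis and 2 towards ovary (33.3% and 22.2%), and their median log2 ratio was 0.43. For all rows that reached 1 FPKM the shares were 45.1% and 16.6% and the median 0.80. FDX2, named here for its mean level, read 9.93 FPKM in testis and 41.6 FPKM in ovary. The ferredoxin reductase gene FDXR went the other way, at 26.4 FPKM in testis and 8.13 FPKM in ovary, and was called higher in testis. Partners of the microsomal P450 enzymes differed less, with POR (ENSDARG00000059035) at 41.3 and 30.3 FPKM and CYB5A at 28.1 and 15.7 FPKM.

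Genes that supply cholesterol were divided between the organs. On the deposited scale their shares called towards testis lay near the 45.1% of all rows, of which 16.6% were called towards ovary. Of 18 rows for cholesterol uptake, transport and storage, 16 reached 1 FPKM; 7 passed towards testis and 4 towards ovary, and the median log2 ratio was 0.10. The lipoprotein receptor gene SCARB1 read 617 FPKM in ovary and 20.2 FPKM in testis. The lysosomal cholesterol carrier gene NPC2, in the higher of its 2 rows, read 184 FPKM in ovary and 57.2 FPKM in testis. The mitochondrial membrane genes tspo and VDAC1 read 39.4 and 106 FPKM in testis and 15.96 and 127 FPKM in ovary; tspo was called higher in testis and VDAC1 was not called. For uptake, transport and storage the shares called were 43.8% towards testis and 25.0% towards ovary. With the median ratio of all rows set to 0 they were 12.5% and 37.5%, where all rows stood at 25.1% and 30.3%. For cholesterol synthesis 8 of 19 rows passed towards testis and 3 towards ovary (42.1% and 15.8%, median 0.51). After the same centring these shares were 31.6% and 26.3%. The synthesis rows with the highest mean levels were TM7SF2 (144 FPKM in testis and 0.95 in ovary), HMGCS1 (54.9 and 49.2), FDPS (37.5 and 55.1) and NSDHL (9.15 and 37.8). TM7SF2 encodes a sterol reductase, HMGCS1 and FDPS act early in the chain, and NSDHL removes a methyl group of the sterol. Other synthesis rows with large ratios towards testis, chosen after their values were seen, were MSMO1 (26.0 FPKM in testis and 1.07 in ovary), LSS (17.6 and 0.77), HSD17B7 (13.9 and 0.78) and IDI1 (39.0 and 3.03). The 3 synthesis rows called towards ovary were NSDHL, MVK (3.08 FPKM in testis and 14.8 in ovary) and insig1 (7.16 and 22.2).

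Other enzymes that convert steroids were called towards testis at a share near that of all rows (45.1%, with 16.6% towards ovary). Among 18 rows that reached 1 FPKM, 8 passed towards testis and 2 towards ovary, 44.4% and 11.1% (median log2 ratio 0.12). With the median ratio of all rows set to 0 these shares were 22.2% and 44.4%, where all rows stood at 25.1% and 30.3%. Of the 18 rows, the 4 with the highest mean levels were HSD3B7 (64.2 FPKM in testis and 75.7 in ovary), HSD17B10 (27.6 and 46.8), cbr1l (19.1 and 44.1) and hsd17b12b (17.9 and 37.9). HSD3B7 is known for bile acid synthesis rather than for hormones. On the deposited scale the 2 rows called higher in ovary were cbr1l and hsd17b12b. The oestrogen-making hsd17b1 read 4.72 FPKM in ovary and 2.02 FPKM in testis and was not called. The gene hsd20b2, whose product acts on glucocorticoids in zebrafish, read 2.97 FPKM in testis and 0.42 FPKM in ovary.

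Regulators and receptors of the pathway were called towards testis in more than 45.1% of rows, the share of all rows, on the deposited scale. Among 14 regulator rows that reached 1 FPKM, 10 passed towards testis and 1 towards ovary (median log2 ratio 1.34). With the median ratio of all rows set to 0, 5 of the 14 passed towards testis and 1 towards ovary, where all rows stood at 25.1% and 30.3%. The gonadotropin receptor genes lhcgr and FSHR read 1.81 and 4.72 FPKM in testis and 0.13 and 0.07 FPKM in ovary. The 4 rows with the highest mean levels were NR2F2 (37.1 FPKM in testis and 7.65 in ovary), DHX37 (10.4 and 45.6), creb1a (26.3 and 10.7) and prkacaa (13.5 and 10.5). Under both scalings the regulator row called towards ovary was DHX37, and whether this gene acts in steroid synthesis was not tested. Among 7 steroid receptor rows that reached 1 FPKM, 5 passed towards testis and 0 towards ovary (median 1.31). With the trimmed mean, 1 receptor row passed towards testis and 1 towards ovary (14.3% each), where all rows stood at 21.9% and 33.7%. After centring on the median ratio 2 passed towards testis (28.6%) and 1 towards ovary (14.3%), the former near the share of all rows. The progestin receptor gene PGR read 19.7 FPKM in testis and 1.09 FPKM in ovary and the glucocorticoid receptor gene NR3C1 21.9 and 5.46 FPKM. The membrane-associated PGRMC1 (39.6 and 23.8 FPKM) and PGRMC2 (42.0 and 81.3 FPKM) were not called. In these 6 lists 82 of 90 rows reached 1 FPKM, and 40 of them (48.8%) passed towards testis and 12 (14.6%) towards ovary, near the shares of all rows. After the same centring the counts were 20 (24.4%) and 23 (28.0%), again near them.

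**Figure D4:**
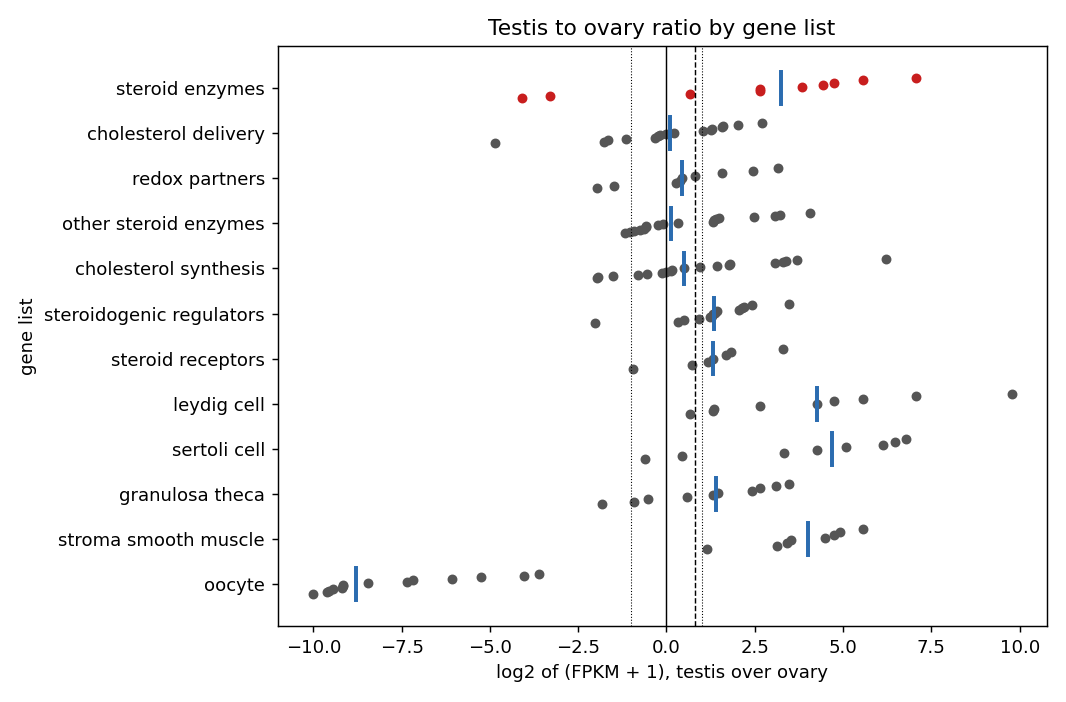
Log2 ratio of testis to ovary on FPKM + 1 for each row that reached 1 FPKM, by gene list, with list medians as blue bars, a dashed line at the median of all rows (0.80) and dotted lines at 2-fold. The steroid enzymes (red, 10 rows) spread from -4.08 to 7.07, and the 14 oocyte rows run from -10.02 to -3.60.

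Marker genes of germ cells and of most support cells also differed between the organs. For the counts below, 45.1% of all rows that reached 1 FPKM were called towards testis and 16.6% towards ovary. The labelled organs bore their own markers, with insl3, the peptide hormone gene of Leydig cells, at 5225 FPKM in testis and 4.98 FPKM in ovary, and zp2.2, an egg coat gene, at 4862 FPKM in ovary and 7.43 FPKM in testis. Beside the 7 rows higher in testis, 8 of 9 rows of the Leydig list were higher there. However, 5 of those 9 are steroid enzymes of this account, and igf3 (40.4 FPKM in testis and 1.15 in ovary) is also in the Sertoli list. Rows of the Leydig list summed to 6004 FPKM in testis and 43.3 FPKM in ovary, with insl3 holding most of the former, and none was at the smallest value of 0.01. Sertoli cell rows summed to 1370 FPKM in testis and 19.1 FPKM in ovary, with 6 of 8 higher in testis and ptgdsa at the smallest value in ovary. Stroma and smooth muscle rows summed to 988 FPKM in testis and 36.4 FPKM in ovary, with 8 of 8 higher in testis. So were 10 of 11 spermatid and sperm rows (2456 FPKM summed in testis and 46.0 in ovary), 7 of 7 immune rows (209 and 11.5) and 4 of 5 erythrocyte rows (222 and 19.3). Beside the 2 rows higher in ovary, all 14 oocyte rows were higher in ovary, summing to 21505 FPKM there and 45.1 FPKM in testis. Of 10 rows listed for granulosa and theca cells, 6 passed towards testis and 1 towards ovary on the deposited scale. They summed to 242 FPKM in testis and 46.5 FPKM in ovary, mostly from CYP17A1. The row called towards ovary was foxl2l (0.49 FPKM in testis and 4.29 in ovary), and whether it marks follicle cells was not tested. The rows lhcgr and CYP17A1, called towards testis, are also in the Leydig list, so the count is not particular to follicle cells. The count also depends on scaling, since setting the median ratio of all rows to 0 lowers each log2 ratio by 0.80. The rows lhcgr (1.31) and wnt4b (1.47) are then no longer called, and hsd17b1 (-0.92) and RSPO1 (-0.52) pass towards ovary. The granulosa and theca list held 20 symbols, of which 10 were matched. When unmatched symbols were later looked up without a final a or b, CYP19A1 and FOXL2 ENSDARG00000068417 were called towards ovary. Rows of INHBA, FST, WNT4 and inha found in that way were called towards testis. The part of cell content in the enzyme differences was not tested.

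Adrenal-type steroid cells, called interrenal in fish, also use STAR and cyp11c1. The gene cyp21a2, needed for cortisol, was at the smallest value of 0.01 in testis and at 0.06 FPKM in ovary. The row of cyp11c1 stood at 53.8 FPKM in testis and 0.15 FPKM in ovary. The chromaffin cell genes TH and DBH read 0.07 and 0.74 FPKM in testis, and TH was at the smallest value in ovary. Of the same list, chga read 0.47 FPKM in testis and 0.42 FPKM in ovary. SLC18A2 read 0.64 FPKM in testis and 1.94 FPKM in ovary, reached the minimum in ovary and was not called. Whether interrenal or chromaffin cells were in either sample was not tested. The corticotropin receptor gene mc2r read 3.54 FPKM in testis and 0.70 FPKM in ovary. Of the 7 rows in that list 3 reached 1 FPKM, and the list summed to 59.3 FPKM in testis, mostly cyp11c1, and 3.33 FPKM in ovary.

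Across the 9 other settings tried, HSD17B3 was the steroid enzyme row whose call changed. Changing the minimum, the fold or the matching of symbols cannot alter a log2 ratio, and the synonyms gave the same 10 rows. The ranges below therefore rest on the other pseudocounts and the rescalings. The log2 ratio of STAR ranged from 5.82 to 7.60, that of CYP11A1 ENSDARG00000092696 from 2.65 to 5.93 and that of cyp11c1 from 3.51 to 7.75. The ranges for the rows higher in ovary were -5.06 to -2.99 for hsd3b2 and -4.27 to -2.89 for CYP11A1 ENSDARG00000002347. HSD17B3 ranged from -0.32 to 1.05 and was called higher in testis with a pseudocount of 0.1.

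**Figure D5:**
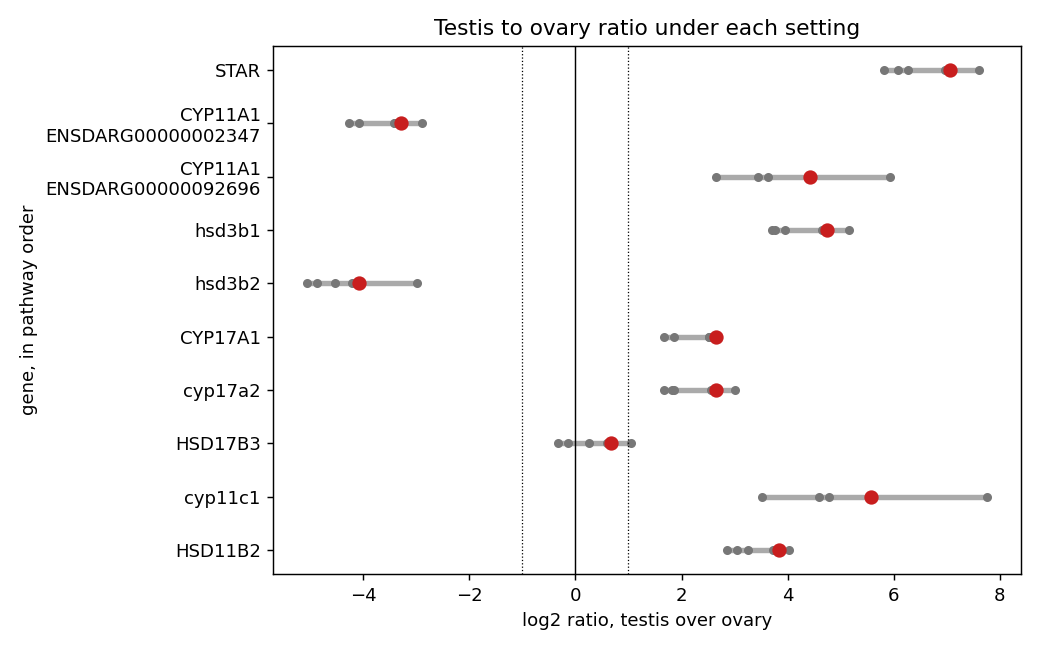
Log2 ratio of testis to ovary for each steroid enzyme row as reported (red) and under the 9 other settings (grey points and bars), with dotted lines at 2-fold. HSD17B3, from -0.32 to 1.05, is the row whose sign varies.

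The rows nearest in level to STAR and hsd3b2 were found by distance on log2(FPKM + 1) over the 2 libraries, which is a likeness over 2 points only. For STAR they included AK1 (404 FPKM in testis and 2.03 in ovary) and PVALB (480 and 1.70), at distances of 0.10 and 0.33. For hsd3b2 they were ftr86 (2.06 FPKM in testis and 51.0 in ovary), zgc:174935 (2.14 and 47.0) and ppt2a.5 (2.57 and 52.4), at distances of 0.034, 0.13 and 0.20.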

How the data were processed

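Total RNA of 1 testis and 1 ovary library was measured, each from 3 pooled adults sequenced on a BGISEQ platform, per the labels' protocols. The authors deposited 1 table with 1 FPKM column per organ, per the file headers. Per the submitters' processing notes, tools named were HISAT, Bowtie2 and RSEM, with build GRCz10; what each did, with its version, strand setting and annotation, was not given in the sources used here. Values of 0.01, the smallest (430 testis rows and 3540 ovary rows), were taken as a stand-in for 0.

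A gene symbol table named 21881 of 24539 rows. Ratios were log2 of (FPKM + 1) in testis over ovary, called at 2-fold where the higher library reached 1 FPKM (Python 3.11.15, pandas 2.3.3); the scale understates the ratios of low genes. The members and lists were chosen with earlier results of these data known. Of each pathway list the 4 rows with the highest mean level were named, and the cell type lists, whose 4 highest were also to be named, are given mostly by their sums. Also named was a fixed set of steroid and gonad genes; cyp19a1a, nr5a1a and nr5a1b of that set carry no row of their own. A few rows that these rules select are not reported here. The chromaffin genes TH and DBH were named as markers. Absolute depth is unknown. From steps among 1053 low rows, the FPKM of 1 read in testis was 1.08 times that in ovary, a match scored for steps up to 3 only. The trimmed mean and this step were tried on simulated data, and the outcome is not reported here. In the trial of the trimmed mean the changed rows were all raised towards testis. It therefore cannot show how that scaling behaves where many rows differ in both directions. The alternatives were other pseudocounts, minimums, folds, scalings and ways of matching symbols. No protein or promoter sequence was used here.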

Additional observations from a re-analysis of the deposited data

How the results depend on the processing

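No paired analysis was possible because each organ has 1 library, and for the same reason no replicate could be left out. With a pseudocount of 0.1 or 5, a minimum of 5 FPKM or none, a 4-fold rule, 3 rescalings or RefSeq synonyms, the counts of steroid enzymes were 7 higher in testis and 2 in ovary, except that HSD17B3 joined the former with a pseudocount of 0.1 (log2 ratio 1.05). Dropping the minimum or using synonyms could not change these counts, since all 10 rows reached 1 FPKM and synonyms gave the same 10 rows. Nor could the minimum of 5 FPKM, which removes only the uncalled HSD17B3. The median of the 10 rows ranged from 2.27 to 3.51. With a minimum of 5 FPKM, which leaves 9 rows, it was 3.84. For CYP17A1 against cyp17a2 the log2 ratio of ratios turned from -0.36 to 0.0018 with 1 FPKM added to each value. Of the 90 pathway rows outside the steroid enzymes, 82 reached 1 FPKM, and 40 were higher in testis and 12 in ovary. All rows at that level stood at 45.1% and 16.6%. Centring on the median ratio gave 20 and 23 (all rows 25.1% and 30.3%), and the trimmed mean 18 and 26 (21.9% and 33.7%). A 4-fold rule gave 18 and 2 (21.6% and 6.2%), and a pseudocount of 5 gave 21 and 10 (23.0% and 11.7%). By construction these settings shift all ratios (by 0.80 and 0.98), raise the bar or shrink the ratios of low rows. The shift of 0.98 comes from plain FPKM ratios, whereas low rows have smaller ratios on log2(FPKM + 1). The values of 0.15 FPKM for cyp11c1 and 0.37 FPKM for CYP11A1 ENSDARG00000092696 in ovary rest on an unknown number of reads, which limits their ratios.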

Other observations

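Several steroid genes that the lists wrote with a final a or b carry a human-style symbol in the naming table, and their rows were looked up after the lists had been matched. CYP19A1, the gene of the aromatase that makes oestrogens, read 2.04 FPKM in ovary and was at the smallest value of 0.01 in testis. HSD17B12, which acts in fatty acid elongation and has also been studied in oestrogen synthesis, read 94.2 FPKM in ovary and 5.43 FPKM in testis, 17.4 times higher in ovary. The symbol NR5A1, of the transcription factor that drives steroid enzyme genes, was carried by 2 rows. ENSDARG00000103176 read 24.8 FPKM in testis and 2.49 FPKM in ovary, and ENSDARG00000023362 read 3.03 and 0.04 FPKM, so both NR5A1 rows were called higher in testis. Of the 2 rows of SRD5A2, a steroid reductase gene that acts on testosterone, ENSDARG00000043587 read 3.37 FPKM in testis and 0.23 FPKM in ovary, and ENSDARG00000039067 read 0.49 and 0.23 FPKM. With such rows added, 104 of 118 pathway rows reached 1 FPKM, and 52 of them (50%) were called towards testis and 15 (14.4%) towards ovary, beside 45.1% and 16.6% of all rows. With the median ratio of all rows set to 0 the counts were 30 and 30. This matching was chosen after seeing the data.

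Of the 2 rows of ESR2, an oestrogen receptor gene, ENSDARG00000034181 read 28.0 FPKM in testis and 0.71 FPKM in ovary, whereas ENSDARG00000016454 read 2.15 and 3.54 FPKM and was not called.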
